A study of Arabidopsis thaliana with 9 samples.

Results

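Pol V transcripts that lie head to head with a transcript of the other DNA strand were described from the list of Pol V-associated RNAs of *Arabidopsis thaliana*. Of the 4502 listed transcripts, 820 (18.2%) were members of such divergent pairs, 404 of them plus-strand and 416 minus-strand RNAs. A member had at most 3 reads in each *nrpe1* library, was shorter than 1400 bp and overlapped a listed transcript of the other strand by at least 1 bp. Its partner was the transcript with the longest overlap, and the minus-strand transcript of the pair had both the lower start and the lower stop. In this layout the 5′ parts of both RNAs share the same DNA, called the shared zone here, and each RNA then runs on alone into its own arm. The members were therefore chosen on measured values, namely the *nrpe1* reads and the called ends, and neither is a finding about them.

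RNA polymerase V (Pol V) is a plant-specific relative of RNA polymerase II that produces long non-coding RNA at silenced loci. In RNA-directed DNA methylation, small interfering RNAs carried by ARGONAUTE4 (AGO4) are thought to pair with Pol V transcripts, and the proteins gathered there bring DNA methyltransferases to cytosines in the CG, CHG and CHH contexts, where H is any base but G. Pol V has no known core promoter motif, and it can transcribe both strands of a locus.

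RNA bound to NRPE1, which is the catalytic subunit of Pol V, was immunoprecipitated (Pol V RIP-seq) from *nrpe1* (*nrpd1b-11*) and Col-0 wild-type plants, with 2 biological repeats each. RNA bound to AGO4 was taken in the same way (AGO4 RIP-seq), of which the *ago4* (*ago4-1*, introgressed into Col-0) and Col-0 libraries were used, 1 each. All plants were of the Col-0 background, were seedlings of about 2.5 weeks, grown on soil in long days, and gave their aerial parts, fixed with 0.5% formaldehyde. In each mutant the gene of the immunoprecipitated protein is mutated in the whole plant. Reads on listed transcripts numbered 3049 and 1980 in the *nrpe1* libraries and 251106 and 189141 in the Col-0 libraries of the Pol V RIP-seq, and 6245 in *ago4* and 118313 in Col-0 in the AGO4 RIP-seq.

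The sequences below show what a divergent pair looks like on the DNA. The first set holds the 3 pairs with the shortest shared zones, with the shared zone in capitals and up to 100 bases of each arm in lower case, read along the plus strand of TAIR10.1. RNA of the minus strand was called from the end of the capitals leftwards, and RNA of the plus strand from their beginning rightwards.
PVTrans382 and PVTrans381, chr1:13029539-13029788: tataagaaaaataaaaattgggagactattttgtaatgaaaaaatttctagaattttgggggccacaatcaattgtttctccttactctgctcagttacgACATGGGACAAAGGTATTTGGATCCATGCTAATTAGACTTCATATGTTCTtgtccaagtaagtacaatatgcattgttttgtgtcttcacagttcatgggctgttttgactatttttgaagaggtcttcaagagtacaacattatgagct
PVTrans3075 and PVTrans3074, chr4:3722813-3723083: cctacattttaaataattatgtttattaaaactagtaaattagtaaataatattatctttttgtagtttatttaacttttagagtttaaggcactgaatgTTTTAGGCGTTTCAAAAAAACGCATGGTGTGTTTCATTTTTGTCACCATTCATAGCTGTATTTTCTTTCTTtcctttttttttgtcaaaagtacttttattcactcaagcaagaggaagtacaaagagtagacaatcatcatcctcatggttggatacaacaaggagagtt
PVTrans2124 and PVTrans2123, chr3:6717984-6718266: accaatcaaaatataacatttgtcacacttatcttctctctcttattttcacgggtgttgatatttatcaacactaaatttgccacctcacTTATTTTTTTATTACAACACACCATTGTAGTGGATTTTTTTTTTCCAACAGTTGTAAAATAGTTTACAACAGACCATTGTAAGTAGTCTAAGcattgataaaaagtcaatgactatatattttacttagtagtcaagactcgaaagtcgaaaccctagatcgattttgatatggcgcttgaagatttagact
These zones measured 50, 71 and 92 bp. They had a GC content of 36%, 32.4% and 27.2%, against 33.5%, 27% and 33.0% in the stretches of arm shown, and held 0, 2 and 0 CG dinucleotides on the plus strand.

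The second set shows the first 80 bases of both transcripts at 2 of the loci for which the study designed primers, each read 5′ to 3′ on its own strand, with CG dinucleotides in capitals. They lie at opposite ends of the shared zone and point towards each other across it.
PVTrans737, plus strand, chr1:19743641-19743720: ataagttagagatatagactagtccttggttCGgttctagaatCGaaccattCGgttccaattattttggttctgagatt
PVTrans736, minus strand, chr1:19744415-19744494: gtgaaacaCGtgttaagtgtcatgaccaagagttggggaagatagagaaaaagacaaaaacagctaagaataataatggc
PVTrans1927, plus strand, chr2:15139897-15139976: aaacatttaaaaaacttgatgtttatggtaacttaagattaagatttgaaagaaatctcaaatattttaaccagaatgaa
PVTrans1926, minus strand, chr2:15140385-15140464: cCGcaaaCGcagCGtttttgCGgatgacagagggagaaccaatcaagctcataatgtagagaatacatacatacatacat
PVTrans737 and PVTrans736 began with 3 and 1 CG dinucleotides in 80 bases. PVTrans1927 began with 0 CG dinucleotides and a GC content of 21.2%, and PVTrans1926 with 4 and a GC content of 42.5%, so the called 5′ ends of 1 pair can differ in composition.

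The third sequence is the whole shared zone under PVTrans2467, the member with the most Col-0 reads per length, again on the plus strand with CG in capitals.
PVTrans2468 and PVTrans2467, chr3:14065883-14066105: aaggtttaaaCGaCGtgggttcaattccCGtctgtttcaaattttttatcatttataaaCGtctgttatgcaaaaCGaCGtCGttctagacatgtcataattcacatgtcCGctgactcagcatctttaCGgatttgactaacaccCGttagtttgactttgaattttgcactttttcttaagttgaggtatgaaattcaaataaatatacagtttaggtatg
Its 223 bp held 10 CG dinucleotides at a GC content of 34.5%. The ends are those of clusters of reads from sonicated, randomly primed RNA, not mapped 5′ ends, and the deposited start was read as counting from 0. How the strand of each mate of a read pair was assigned is not given in detail in the sources used here. The called ends, and with them the layout and the length of the shared zone, depend on it.

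The 820 members formed 442 divergent pairs. In 378 pairs both transcripts were members. The other 64 had 1 member, whose partner was too long in 40 cases, had more than 3 reads in an *nrpe1* library in 21, failed on both in 6 (counted in both numbers), or passed both limits but overlapped another transcript for longer in 9. Partners were mutual for 805 members, and 811 overlapped exactly 1 transcript of the other strand. Without the limits on reads and length 907 listed transcripts were divergent, of which 56 failed only the length, 17 only the reads and 14 both. Under the same limits 322 transcripts were convergent, with their 3′ parts shared, 849 were nested, with 1 transcript inside the other or an end in common, and 1969 overlapped no listed transcript of the other strand. Divergent transcripts thus made up 41.2% of the 1991 that passed the limits and had a partner. They lay on all 5 nuclear chromosomes, with 200 on chromosome 1, 192 on 2, 146 on 3, 107 on 4 and 175 on 5, or between 16.3% (chromosome 4) and 20.5% (chromosome 2) of the listed transcripts there.

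At the edge of the length limit PVTrans850, of 1395 bp, was the longest member, and PVTrans2320, of 1403 bp, the shortest divergent transcript left out by length. At the edge of the read limit 9 members had exactly 3 reads in an *nrpe1* library, among them PVTrans300, PVTrans1585 and PVTrans4128. The divergent transcripts PVTrans471, PVTrans1842, PVTrans2000 and PVTrans3578 had 4 and were left out.

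The reads on the members came almost entirely from Col-0, as the rule and the authors' transcript calling required, and the values are given as a description with no test. All 820 members together had 20 reads in *nrpe1* repeat 1 and 129 in repeat 2, against 44091 and 33700 in Col-0. In *nrpe1*, 808 members (98.5%) had no read in repeat 1 and 725 (88.4%) none in repeat 2, and 714 (87.1%) had none in either, against 82.3% over the whole list. The Col-0 median over members was 45 reads (5 to 401) for repeat 1 and 33 reads (3 to 344) for repeat 2, beside 43 and 32 over the whole list. In 0 of 820 members an *nrpe1* library had as many reads as the Col-0 library of its repeat. Since every member had at most 3 reads in each *nrpe1* library, a fold is a lower bound, taken here as the mean Col-0 reads over the larger of 3 reads and the mean *nrpe1* reads. Over members this lower bound had a median of 13, and 722 of 820 members reached 8. Over the whole list the median was 12, and 3826 of 4502 transcripts reached 8. The median was 13.7 for convergent and 13.5 for nested transcripts. Library totals outside the listed transcripts are unknown here, so libraries were compared as if equally deep, and read counts carry counting error besides.

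**Figure D1:**
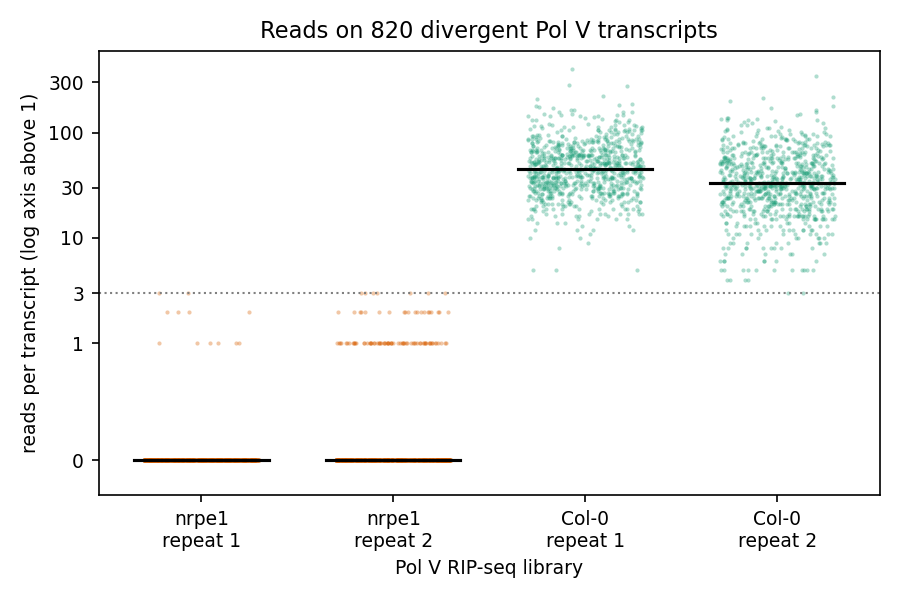
Reads per transcript in the 4 Pol V RIP-seq libraries for the 820 divergent transcripts. Each point is 1 transcript, the black bars are medians, the vertical axis is linear below 1 and logarithmic above it, and the dotted line marks 3 reads, the upper limit set by the rule in *nrpe1*. The *nrpe1* medians lie at 0, and the Col-0 medians at 45 and 33.

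The reads that remained in *nrpe1* were few. Over both *nrpe1* libraries 1 member had 4 reads, 8 had 3, 24 had 2 and 73 had 1. PVTrans3932, on the plus strand of chromosome 5, was the member with 4, with 3 and 1 reads in *nrpe1*, against 33 and 60 reads in the wild type. Of the 8 tied at 3 reads, the examples below were taken by their lowest start positions. For PVTrans2024, on the minus strand of chromosome 3, *nrpe1* gave 0 and 3 and Col-0 34 and 33 reads. For PVTrans3542, on the plus strand of chromosome 5, *nrpe1* gave 0 and 3 and Col-0 23 and 65 reads. In these 3 members every Col-0 library lay above every *nrpe1* library, and their partners PVTrans3931, PVTrans2025 and PVTrans3541 had 0 or 1 reads in each *nrpe1* library.

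The 2 Col-0 repeats differed on members about as much as on the whole list. The log2 ratio of repeat 1 to repeat 2 had a median of 0.44 and an SD of 1.098 over members, against 0.46 and 1.098 over the whole list, and 80 members (9.76%) differed more than 4-fold between repeats, against 10.1% of the list. PVTrans381 was an example, with 5 reads in the first and 75 in the second repeat of Col-0. Members were slightly shorter than the list, with a median of 634.5 bp (154 to 1395) against 689 bp, and had a median of 6.35 Col-0 reads per 100 bp against 5.66. The length limit of the rule bears on both values.

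The densest members had several times more. PVTrans2467, on the minus strand of chromosome 3, had 158 and 87 Col-0 reads on 252 bp, or 48.6 reads per 100 bp in the mean of both repeats, and 0 in both *nrpe1* libraries. PVTrans758 had 43.7 reads per 100 bp, PVTrans736 had 43.4, PVTrans3129 had 35.6 and PVTrans2592 had 35.1. All 5 had 0 or 1 reads in each *nrpe1* library. PVTrans736 had the most reads of all members, with 0 and 1 in *nrpe1* against 401 and 344 in Col-0, so that the Col-0 mean was at least 124-fold higher.

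The shared zone was the larger part of most pairs. It measured 458 bp in the median (50 to 1338, quartiles 327 and 646.5) and made up a median of 58.2% of the whole transcribed region, which measured 889.5 bp in the median. In convergent pairs, for comparison, the shared 3′ zone measured 530 bp and the region 1108 bp, in 189 pairs. The arms were short, with a median of 122.5 bp for the minus-only and 135.5 bp for the plus-only arm. Both arms measured at most 100 bp in 76 pairs (17.2%) and at least 100 bp in 167 (37.8%). Their lengths were nearly unrelated across the 442 pairs, with a Spearman rho of 0.038, as a description over pairs of which each shares 1 locus and library set. The minus-only arm was the longer one in 208 pairs and the plus-only arm in 233.

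**Figure D2:**
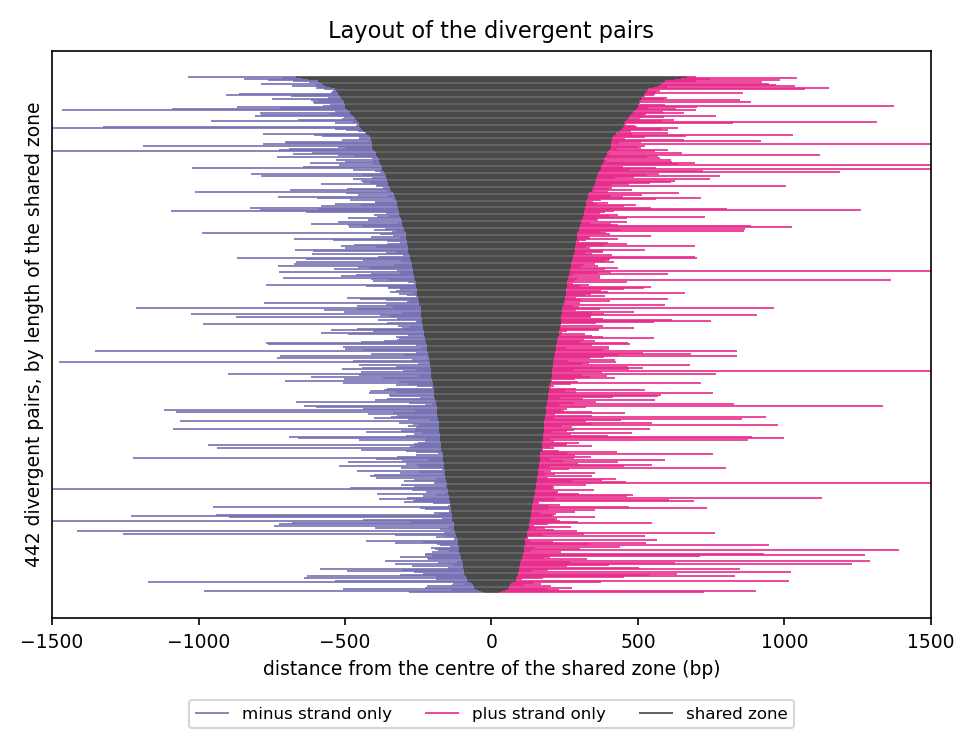
Layout of the 442 divergent pairs, each drawn as 1 horizontal line and sorted by the length of its shared zone, with the longest at the top. The horizontal axis gives the distance from the centre of the shared zone in bp, with the zone in grey, the minus-only arm in violet to the left and the plus-only arm in pink to the right, and 10 pairs run past the 1500 bp limit of the axis. The arms of either side vary in length from pair to pair at every length of the zone.

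The longest shared zones belonged to PVTrans298 and PVTrans297 on chromosome 1 (1338 bp), PVTrans1981 and PVTrans1980 on chromosome 2 (1296 bp) and PVTrans490 and PVTrans489 on chromosome 1 (1253 bp). In each of them 1 transcript exceeded the length limit and only the other was a member. PVTrans298 had 0 reads in both *nrpe1* libraries, against 121 and 131 Col-0 reads, and lay 74 bp from PGY2, a ribosomal protein gene. The shortest zones, whose sequences stand above, included PVTrans3075 and PVTrans3074, in which 71 shared bp separated arms of 868 and 945 bp, over a pseudogene (AT4G06612). Zones under 100 bp were found in these 3 pairs only.

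The loci for which the study designed primers included 5 divergent pairs, and all 10 transcripts were members. At PVTrans737 and PVTrans736 the zone measured 854 bp, and the arms 176 bp on the plus and 4 bp on the minus side. PVTrans737 had 0 and 2 reads in *nrpe1*, against 156 and 213 Col-0 reads. At PVTrans1927 and PVTrans1926, with a zone of 568 bp, *nrpe1* gave 0 reads in both libraries, and Col-0 gave 285 and 102 reads for the plus and 87 and 47 for the minus transcript. PVTrans1819 and PVTrans1818, on chromosome 2, shared 823 bp and lay 117 bp from the start of WEB1, a gene known for its part in chloroplast movement. Their Col-0 reads were 50 and 32 for the plus and 85 and 41 for the minus transcript. PVTrans1874 and PVTrans1873 shared 369 bp, with 12 and 29 Col-0 reads for PVTrans1874 and 37 and 24 for PVTrans1873. PVTrans3863 and PVTrans3862 shared 669 bp, with 31 and 7 Col-0 reads for PVTrans3863 and 61 and 43 for PVTrans3862. The last 3 pairs had 0 reads in every *nrpe1* library.

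The balance between the strands was tested in Col-0, since the rule did not use the ratio between them. A pair exists, however, only where both strands passed the authors' limits on Col-0 reads. Loci with too few reads on 1 strand are therefore missing from the pairs. Plus and minus reads of each pair, counted in the same library, were compared per length by edgeR's quasi-likelihood test with the library as a block, over all 1181 opposite-strand pairs of the list and with Benjamini-Hochberg adjustment over all of them. Of the 442 divergent pairs, 2 (0.452%) had an adjusted p under 0.05, and both had more reads on the plus strand. Over all opposite-strand pairs 0.931% were called (11 of 1181). The number and the direction of the divergent calls depended on the fit. DESeq2 called 15, of which 5 had more reads on the plus and 10 on the minus strand, and edgeR with TMM normalization called 32, of which 12 had more on the plus and 20 on the minus strand. At an unadjusted p under 0.05 there were 59 divergent pairs and 211 of all. The median absolute log2 ratio was 0.55 in divergent pairs and 0.62 over all pairs. In simulated pairs of the same depth, the test found 0.5% of 2-fold, 32.0% of 4-fold and 78.5% of 8-fold differences, so the low number of calls does not show that the strands were equal.

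PVTrans3129 and PVTrans3128, on chromosome 4, had the largest ratio of the divergent pairs in the edgeR fit. The plus transcript PVTrans3129 had 225 and 95 Col-0 reads on 449 bp, and the minus transcript PVTrans3128 had 26 and 14 on 611 bp. The log2 ratio of plus to minus reads per length was 3.56 in repeat 1 and 3.21 in repeat 2, and 3.39 in the edgeR fit (adjusted p = 0.042). The second call was PVTrans758 and PVTrans757 on chromosome 1, with 148 and 180 Col-0 reads for the plus and 11 and 32 for the minus transcript. Here the log2 ratio was 3.55 and 2.29, and 2.85 in the edgeR fit (adjusted p = 0.042). In both pairs each plus count lay above each minus count. Both pairs overlapped a protein-coding gene, AT4G08330 and AT1G54120, and in both the plus-strand transcript alone was matched by AGO4-bound RNA.

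No divergent pair with more reads on the minus strand passed the test as fitted with the library block, whereas 2 did without the block and 1 with at least 10 reads in each value. PVTrans1755 and PVTrans1754 on chromosome 2, chosen after their values were seen, had 45 and 3 Col-0 reads for the plus and 43 and 54 for the minus transcript. Their log2 ratio was -1.58 in repeat 1, -5.81 in repeat 2 and -3.26 in the edgeR fit (adjusted p = 0.158), so the repeats were far apart. PVTrans2468 had 26 and 56 reads and its minus-strand partner PVTrans2467, the densest member, 158 and 87, a log2 ratio of -3.73 and -1.76 (edgeR adjusted p = 0.072). PVTrans737 and PVTrans736 had ratios of -1.63 and -0.96 (edgeR adjusted p = 0.15). PVTrans1927 and PVTrans1926, with more reads on the plus strand, had ratios of 2.14 and 1.54 and were not called either (edgeR adjusted p = 0.072).

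Most pairs were within 2-fold, among loci where both strands had enough Col-0 reads to be listed. This limit leaves out strongly unequal loci and bears on the shares and correlations below. On the mean of both repeats, 339 of 442 divergent pairs (76.7%) had plus and minus reads per length within 2-fold of each other, against 72.8% of all 1181 pairs. A difference of more than 4-fold was found in 11 divergent pairs and in 52 of all 1181 pairs. In repeat 1 alone 303 divergent pairs were within 2-fold and 17 over 4-fold, and in repeat 2 alone 261 and 55. The plus strand was the denser one in 207 pairs and the minus strand in 235. The same strand was the denser one in both repeats in 249 pairs (56.3%), 115 with plus and 134 with minus, against 61.6% of all pairs and 65.6% of the 189 convergent pairs. It was so by more than 2-fold in both repeats in 53 divergent pairs (12.0%), against 14.2% of all pairs and 16.4% of convergent pairs. Across the divergent pairs the log2 ratio of repeat 1 followed that of repeat 2 with a rho (Spearman) of 0.222 and an r (Pearson) of 0.258, and across all pairs with a rho of 0.365. The reads per length of both strands had a rho of 0.403 across divergent pairs and 0.287 across all pairs. The plus and minus value of a pair come from the same libraries and in part from the same DNA, so these are descriptions.

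**Figure D3:**
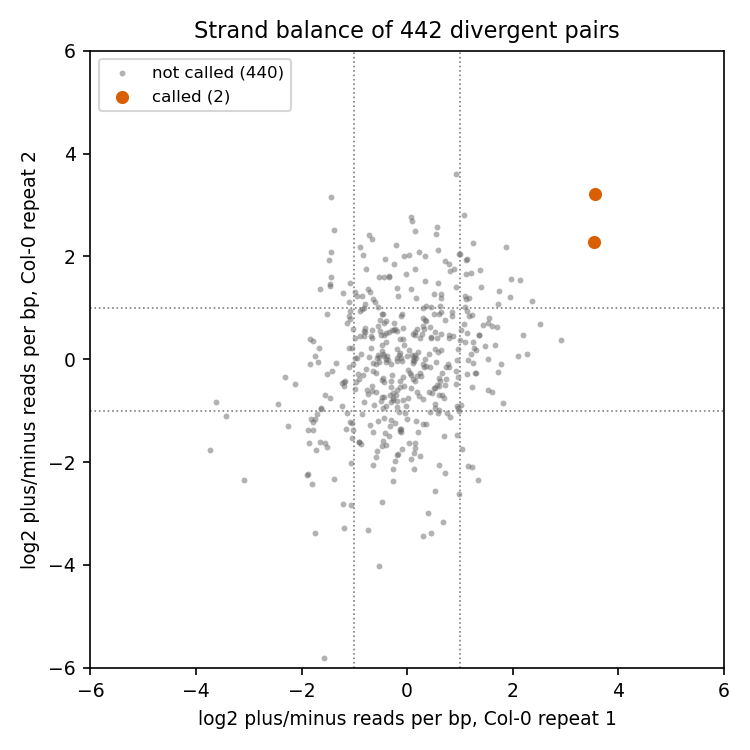
Log2 ratio of plus to minus reads per bp in Col-0 repeat 1 (horizontal axis) and repeat 2 (vertical axis) for the 442 divergent pairs. Each point is 1 pair, orange points are the 2 pairs called by edgeR, grey points the other 440, and dotted lines mark 2-fold. The 2 called pairs lie at 3.56 and 3.21 and at 3.55 and 2.29, apart from the cloud around 0.

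AGO4-bound RNA of the same strand covered at least 50% of the length of 295 of the 820 members (36.0%, Wilson 95% interval 32.8 to 39.3%). AGO4 is the effector Argonaute of RNA-directed DNA methylation, and the AGO4 list was called by the authors from 1 Col-0 and 1 *ago4* library, so no test of genotype was possible. Over the whole list the share was 25.3% (1140 of 4502), and under the same read and length limits it was 27.3% for convergent, 29.0% for nested and 19.6% for single transcripts. The intervals cover counting error only. A member without a match is one that no listed AGO4-bound transcript covered by at least 50%, which does not show that AGO4 was absent. From the AGO4 RIP-seq signal itself, the study concluded that AGO4 is associated with the majority of Pol V transcripts. The 295 matching AGO4-bound transcripts had 52 reads in *ago4*, against 5599 in Col-0. Few *ago4* reads were required by the authors' calling, which set a limit on the fold between these libraries. Of the 295, 268 (90.8%) had none in *ago4*, against 85.7% of the matches over the whole list and 89.8% for nested transcripts. The Col-0 reads of the 295 ranged from 6 to 80 with a median of 17, and none had more than 3 in *ago4*.

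The number of Pol V RIP-seq reads moved with the AGO4 share. Members with AGO4-bound RNA had a median of 105 Col-0 reads over both repeats and 8.58 reads per 100 bp, and those without had 69 and 5.30. They were also shorter, with a median of 580 bp against 676 bp. In 4 classes cut at the quartiles of reads over the whole list, the share was 12.6% for members and 13.5% for the list at 29 to 54 reads, 24.4% and 17.9% at 55 to 74 reads, 39.2% and 25% at 75 to 110 reads, and 62.2% and 44.6% from 111 reads on. In the lowest class the shares were close, with Wilson 95% intervals of 8.45 to 18.3% for members and 11.6 to 15.7% for the list. In the other 3 classes the share of members was the higher one, with intervals of 18.96 to 30.8% against 15.8 to 20.2%, 33.1 to 45.7% against 22.6 to 27.7%, and 55.6 to 68.4% against 41.8 to 47.6%. The whole list includes the members, and in these classes it was not held to the read and length limits of the members. The part of read number in the difference was not tested beyond these classes.

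**Figure D4:**
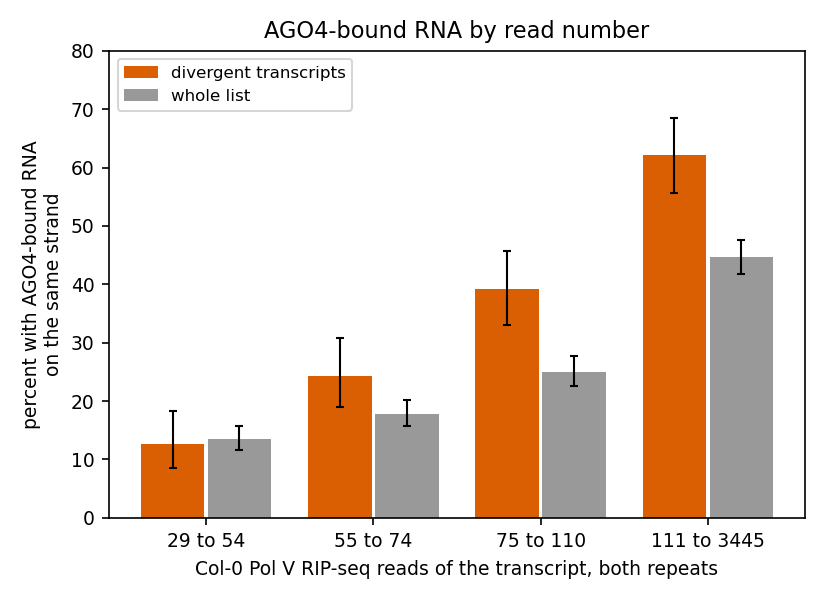
Percent of transcripts with AGO4-bound RNA over at least 50% of their length on the same strand, in 4 classes of Col-0 Pol V RIP-seq reads. Orange bars are the divergent transcripts, grey bars the whole list, and error bars Wilson 95% intervals. In the class with the most reads the bars stand at 62.2% and 44.6%, and in the class with the fewest at 12.6% and 13.5%.

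Among the 442 divergent pairs, both strands were matched by listed AGO4-bound RNA in 69 (15.6%), the minus strand alone in 86, the plus strand alone in 83, and neither in 204 (46.2%). Here a bound strand is one with such a match, and a strand without it may still carry AGO4 below the limits of the list. Both strands were bound in 12.2% of all 1181 pairs and in 5.82% of convergent pairs. Where 1 strand was bound, it was the strand denser in Pol V reads in 125 of 169 divergent pairs (74.0%). The same share was not counted for convergent, nested or all pairs, so it is not shown to be particular to divergent pairs. Reads per length and the AGO4 match also both depend on the length of the same transcript. The part of length in this share was not tested. The median zone measured 411 bp in pairs bound on the plus strand alone, 448.5 bp in those bound on the minus strand alone and 495.5 bp in pairs without AGO4-bound RNA, which had a median of 185, 190 and 147 Pol V RIP-seq reads over both strands and repeats of Col-0. In pairs bound on both strands the median zone followed no single order with these. It was 375.5 bp in the 30 whose AGO4-bound transcripts were themselves divergent, 428 bp in the 31 where they were nested and 558 bp in the 8 where they were convergent, with a median of 207, 238 and 195.5 Pol V RIP-seq reads.

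In the 3 pairs with the most AGO4 reads on the weaker strand, all reads came from Col-0. At PVTrans737 and PVTrans736, the AGO4 RIP-seq in *ago4* gave 0 reads for either strand, and in Col-0 36 reads for the plus and 76 for the minus strand. At PVTrans2245 and PVTrans2244, on chromosome 3, it gave 0 for either strand in *ago4* and 34 and 47 in Col-0, and at PVTrans3278 and PVTrans3277, on chromosome 4, 0 for either strand in *ago4* and 36 and 32 in Col-0. Their Pol V RIP-seq reads in Col-0 were 151 and 138 for PVTrans2245, 139 and 101 for PVTrans2244, 37 and 33 for PVTrans3278, and 67 and 53 for PVTrans3277. At PVTrans3278 and PVTrans3277 the plus strand had more AGO4 reads and the minus strand more Pol V reads.

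The AGO4 list had its own ends, called apart from those of Pol V. Of the 69 divergent pairs bound on both strands, the 2 AGO4-bound transcripts were divergent in 30 (43.5%), nested in 31 and convergent in 8. Of 55 nested Pol V pairs bound on both strands, 12 (21.8%) had divergent AGO4-bound transcripts. On its own, the AGO4 list held 255 divergent among 695 transcripts with a partner (36.7%), and the Pol V list 907 of 2317 (39.1%), before any limit. The AGO4-bound RNA began a median of 8 bp downstream of the member's 5′ end and ended 45 bp before its 3′ end. Over the whole list it began 16 bp downstream and ended 23 bp before, and for nested transcripts 17.5 bp and 18.5 bp. For convergent transcripts it began 58.5 bp downstream and ended 2.5 bp beyond the 3′ end. The rule used the called ends of the members, which bears on these medians. For members, 61.4% of the 5′ ends lay within 100 bp, and 56.9% of the 3′ ends. Over the whole list these shares were 58.8% and 57.6%, and for nested transcripts 59.8% and 61.8%. Over the 69 pairs the log2 plus to minus ratios of AGO4 RIP-seq and Pol V RIP-seq reads had a Spearman rho of 0.481, and the same strand was the stronger one in 42 pairs, the other in 22, with 5 ties.

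Most members lay outside annotated genes. In the annotation of TAIR10.1, 532 members (64.9%) overlapped no gene, against 55.2% of the list. Under the same read and length limits, 59.3% of convergent, 61.7% of nested and 55.7% of single transcripts overlapped no gene. However, the authors called transcripts from reads outside annotated genes. A protein-coding gene was touched by 113 members (13.8%), against 23.0% of the list. Such a gene covered at least 50% of 14 members (1.71%), against 9.97% of the list. Under the same limits, the shares were 16.1% and 2.17% for convergent and 13.9% and 2.12% for nested transcripts. Single transcripts had higher shares, with 26.97% and 15.8%. The low shares were thus not particular to divergent transcripts. The 1 kb upstream of a protein-coding gene was overlapped by 383 members (46.7%), against 47.4% of the list and 58.7% of convergent transcripts. Pseudogenes were overlapped by 111 members (13.5%), against 16.7% of the list and 24.2% of convergent transcripts. Long non-coding RNA genes were overlapped by 65 (7.93%), against 6.57% of the list, and genes of small structural RNAs by 1. Protein-coding genes covered a median of 51.6% of the 100 kb around members and 51.0% around listed transcripts.

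The nearest protein-coding gene outside a divergent pair lay at a median of 859.5 bp, against 836 bp for convergent and 804 bp for nested pairs. It was within 1 kb of 239 divergent pairs, and in 155 of these (64.9%) the start of the gene faced the pair. The corresponding shares were 70.9% for convergent and 56.0% for nested pairs. Both flanking genes faced the pair with their start in 165 divergent pairs (37.3%), 1 of them in 227 and neither in 50. Both did so in 33.9% of convergent and 36.8% of nested pairs, so the share was not particular to divergent pairs. PVTrans851 and PVTrans850 lay 170 bp from CF9 and over a non-coding RNA gene, and PVTrans1819 and PVTrans1818 were an example of a start close by.

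The base composition changed along the pairs. The shared zone had a median GC content of 35.3% (quartiles 33.0 and 37.99%), the minus-only arm 30.6% and the plus-only arm 31.0%, and the 100 bp outside the pair 28% and 29%. All consecutive 500 bp windows of the nuclear genome had a median of 36.6%. Cytosines in the CG context, a context copied by maintenance methylation, numbered 4.97 per 100 bp of both strands in the zone. They numbered 3.48 and 3.39 in the arms, 2 in the 100 bp on either side, and 4 in the genome windows. Within the 285 pairs in which both arms measured at least 50 bp, the zone had the higher GC content in 225 (78.9%), with a median difference of 4.6 percentage points, and more CG, CHG and CHH cytosines per length in 189, 189 and 205. The low GC content outside was shared by the list, whose transcripts had a median of 29% in the 100 bp beyond either end. It was also shared by convergent pairs, with 36.1% in the zone, 32.6% in the arms and 30% outside. CG cytosines fell in the same way in convergent pairs, with 5.83 per 100 bp in the zone, 4.42 in the arms and 3 outside. Beyond the ends of listed transcripts they numbered 2. Over whole transcripts they numbered 4.71 in members and 4.95 in the list. The 3 short zones printed above did not all follow the order of GC content, since the zone of PVTrans2124 and PVTrans2123 had less GC than its arms.

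**Figure D5:**
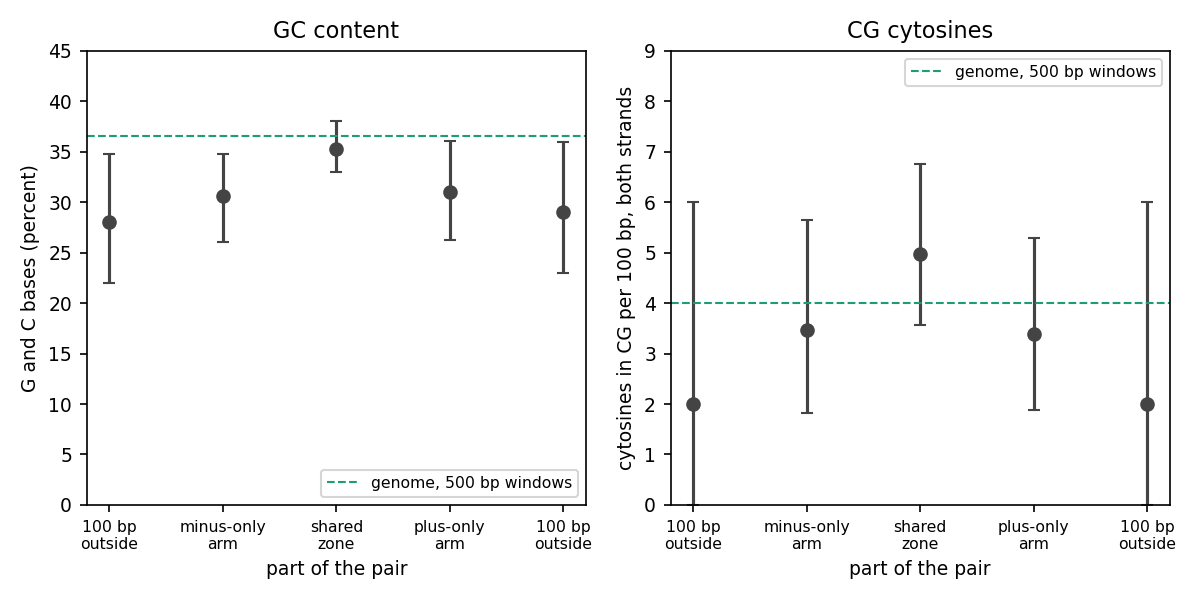
GC content in percent (left) and cytosines in the CG context per 100 bp of both strands (right) along the divergent pairs, from the 100 bp outside the minus-only arm through the shared zone to the 100 bp outside the plus-only arm. Points are medians over pairs, bars run between the quartiles, arms under 50 bp are left out, and the dashed line is the median of 500 bp genome windows. Both measures are highest in the shared zone, at 35.3% and 4.97.

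The letters TATAAA, the core of the TATA box of many RNA polymerase II promoters, were searched in the 250 bases before each called 5′ end, on both strands. They stood on the sense strand before 31.7% of members, on either strand before 50.1%, and before 29.1% and 46.0% of listed transcripts. Promoter windows of protein-coding genes held them in 32.9% and 47.3%, and all consecutive 250 bp windows of the genome in 18.5% and 30.5%. For 242 members (29.5%) all 250 of these bases lay inside the partner transcript. A match is a run of letters in AT-rich sequence and not a mapped promoter.

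Most members lay on sequence that occurs once in the genome. Every 50-base word of 628 members (76.6%) occurred once, against 68.1% of listed, 68.7% of nested and 62.1% of convergent transcripts. The same held for 364 of the 442 shared zones. In the nuclear genome 94.0% of 50-base words occurred once, which is a share of words and not of transcripts. The share of such words per transcript had a lower quartile of 100% over members and 98.5% over the list. The authors called transcripts from uniquely placed reads, which bears on these shares. So does length, with a median of 634.5 bp for members, 689 bp for the list and 764.5 bp for convergent transcripts. No pair among the 383 with arms of at least 20 bp had a 20-base inverted repeat between its arms. An inverted repeat of 20 bases anywhere in the region was found in 23 divergent pairs (5.20%), 8.47% of convergent and 7.69% of nested pairs.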

How the data were processed

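The authors placed stranded paired reads on TAIR10 by SOAPsplice and took clusters of uniquely placed reads outside annotated genes as transcripts. These had to pass limits on reads, read density and the fold between wild type and mutant, with a negative binomial test for the Pol V list. The authors deposited each transcript with its position, length and raw read count per library. The counts are not normalized, and the p-value and q-value that the authors deposited, which hold their own comparison of Col-0 with *nrpe1*, were not used. The AGO4 list also holds deposited counts of deduplicated reads. No deposited column of library values was left out (0 unused), and 3 of the 9 libraries (AGO4 RIP-seq in *nrpe1*, Pol V RIP-seq in *ago4* and *idn2*) were not analysed here.

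Members and lists were chosen with earlier results of these data known. Chromosome lengths of the reference, TAIR10.1, fit the deposited positions, and genes and sequences came from its RefSeq annotation. Lengths equal stop minus start, so bases were read from start plus 1 to stop. Named transcripts were those at primer loci or named in the study, the 3 longest and 3 shortest shared zones, the 5 densest members, called pairs, the 3 pairs with most AGO4 reads on the weaker strand, the 3 members with most *nrpe1* reads (ties by lowest start), and those at the limits of the rule.

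Strand balance was tested in R 4.3.3 with edgeR 4.0.16 (quasi-likelihood, offset of log length and listed reads per library, Benjamini-Hochberg). The block is the library, since plus and minus reads were counted in the same library. The test was tried on simulated data with 200 of 1181 pairs changed. DESeq2 1.42.0 served as an alternative. Other steps used Python 3.11.15, numpy 2.4.6 and pandas 2.3.3.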

Additional observations from a re-analysis of the deposited data

How the results depend on the processing

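The number of pairs called for strand balance depended most on the fit. Over all pairs it was 11, and 22 without the replicate block (plus and minus strand of 1 library are paired by it), 25 without the length offset, 17 with at least 10 reads in each value, 58 with DESeq2 (367 adjusted p-values not given) and 100 with TMM normalization, whose fit estimated infinite prior degrees of freedom, against 7.53. Among divergent pairs it was 2, both with more reads on the plus strand, and 4 without the replicate block (2 plus, 2 minus), 3 with at least 10 reads (2 plus, 1 minus), 15 with DESeq2 (5 plus, 10 minus) and 32 with TMM (12 plus, 20 minus), so the strand with more calls turned with the last 2. PVTrans3129 and PVTrans758 were called in all 7 fits (adjusted p between 3.72e-07 and 0.0478). The median absolute log2 ratio, 0.55, was between 0.65 and 0.80 with 1 repeat left out. The median lower bound of the Col-0 to *nrpe1* fold, 13, was 39 with a floor of 1 read, 7.8 with a floor of 5 reads, and between 11 and 15 with 1 repeat left out. The share of members with AGO4-bound RNA, 36.0%, was 45.1% with an overlap of 1 bp (list 35.7%), 32.7% with AGO4-bound transcripts without *ago4* reads (list 21.7%) and 15.2% with at least 10 deduplicated reads (list 11.6%). The share on promoters, 46.7%, was 32.1% with 500 bp, 64.4% with 2 kb and 37.1% with an overlap of 50%, under which the shares on protein-coding genes, pseudogenes and lncRNA genes were 1.71%, 6.95% and 2.68%. All 100-base words occurred once in 94.0% of members, and protein-coding genes covered 54.4% of the 500 kb around members. The zone length stayed between 444.5 and 458 bp. The cause of these shifts was not tested. With 2 repeats, 1 AGO4 RIP-seq library per genotype and ends taken from read clusters, small shifts of ends or strand balance were not detectable.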
